A study of Arabidopsis thaliana with 16 samples.

Results

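A set of 106 probe sets rose in gynoecia that lacked SEU function, rose also where both SEU and ANT functions were lost, and stayed near the wild-type level in the ant single mutant. SEUSS (SEU) is a transcriptional co-regulator without a DNA-binding domain of its own. It acts as an adaptor that brings the co-repressor LEUNIG to DNA-binding proteins such as MADS-domain factors. AINTEGUMENTA (ANT) is an AP2-type transcription factor that promotes the growth of floral organs and ovules. Loss of both genes blocks ovule formation at the margins of the carpels.

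The samples were gynoecia dissected by hand at floral stages 8 to 10 and hybridised to ATH1 arrays, with 4 arrays for each of 4 genotypes. The genotypes were Col-0 wild type, seu-3 (called seu), ant-1 (called ant) and the double mutant seu-3 ant-1 (called seu ant), with no treatment and no further allele named in the labels. Each array held RNA from a pool of 15 to 25 gynoecia of plants grown at 24 degrees C under 16 h of light. Members were chosen on genotype means of the log2 signal. The rule asked for a mean of at least 7 in seu, for a rise of at least 0.7 over wild type in both seu and seu ant, and for a mean in ant within 0.4 of wild type. JMT and COR47 were to be left out by name. Of the 22746 probe sets, 107 met these limits and JMT was the only one of them removed, because COR47 had a seu mean of 5.59 and had already failed the limit on level. The cap of 300 was not reached. The set was thus chosen on measured values, and its differences from wild type are given below as descriptions with no test. Calls against wild type are counted below over gene lists that include some members. For those members the rule had already required the rise, so their calls are no test.

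Of the 106 members, 56 name 1 gene each, 1 matches several genes and 49 carry no gene name in the annotation used here. A mirror of the rule, with falls of the same sizes from a wild-type mean of at least 7, held 69 probe sets. A further 20 probe sets met the limits for seu and ant but rose by less than 0.7 in seu ant, and 375 met the limits for seu ant and ant but rose by less than 0.7 in seu.

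The SEU probe set served as a check of the labels for seu-3. Its log2 signal was 9.62 to 9.93 in wild type and 9.55 to 9.88 in ant, against 7.5 to 8.41 in seu and 7.88 to 8.09 in seu ant. The 8 arrays of the genotypes with seu-3 thus lay below all 8 of the others. This probe set does not tell ant from wild type or seu ant from seu, so it gave no check of the labels for ant-1. Arrays had median signals of 153.1 to 188.6, and arrays of the same genotype had Pearson correlations of 0.972 to 0.986. Of the 10 carpel regulators fixed as markers, NGA1, SPT and ALC were measured. Measured means, here and below, that a probe set carried the gene's name in the annotation used. The study reports AG from these arrays, so a marker without a named probe set can still be on them. NGA1, SPT and ALC each had a mean log2 signal of at least 6.33 in every genotype. Their levels differed between genotypes, as given further on. The 3 tapetum and pollen markers measured had summed signals of 48.0 to 90.5 on all arrays, where 48.0 is the sum of 3 values at the floor of 16.

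The members' rises ranged from 0.70 to 2.68 in seu, with a median of 1.07 or 2.10-fold, and from 0.70 to 4.05 in seu ant, with a median of 1.72 or 3.29-fold. In ant the same probe sets differed from wild type by -0.40 to 0.40, with a median of 0.09. Over all probe sets, seu and ant each had a median difference of -0.02, and seu ant one of -0.03. Standard errors of the members' differences ran from 0.12 to 0.97, with a median of 0.24. All 4 seu arrays lay above all 4 wild-type arrays for 93 members (3.58% of all probe sets), and all 4 seu ant arrays did so for 104 (8.84% of all probe sets), separations that the rule favours. In seu, 44 members rose by less than 1, 56 by 1 to 2 and 6 by more than 2, whereas in seu ant the same classes held 15, 53 and 38 members. Since these are bulk samples, more cells of a type and more RNA per cell cannot be told apart.

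**Figure D1:**
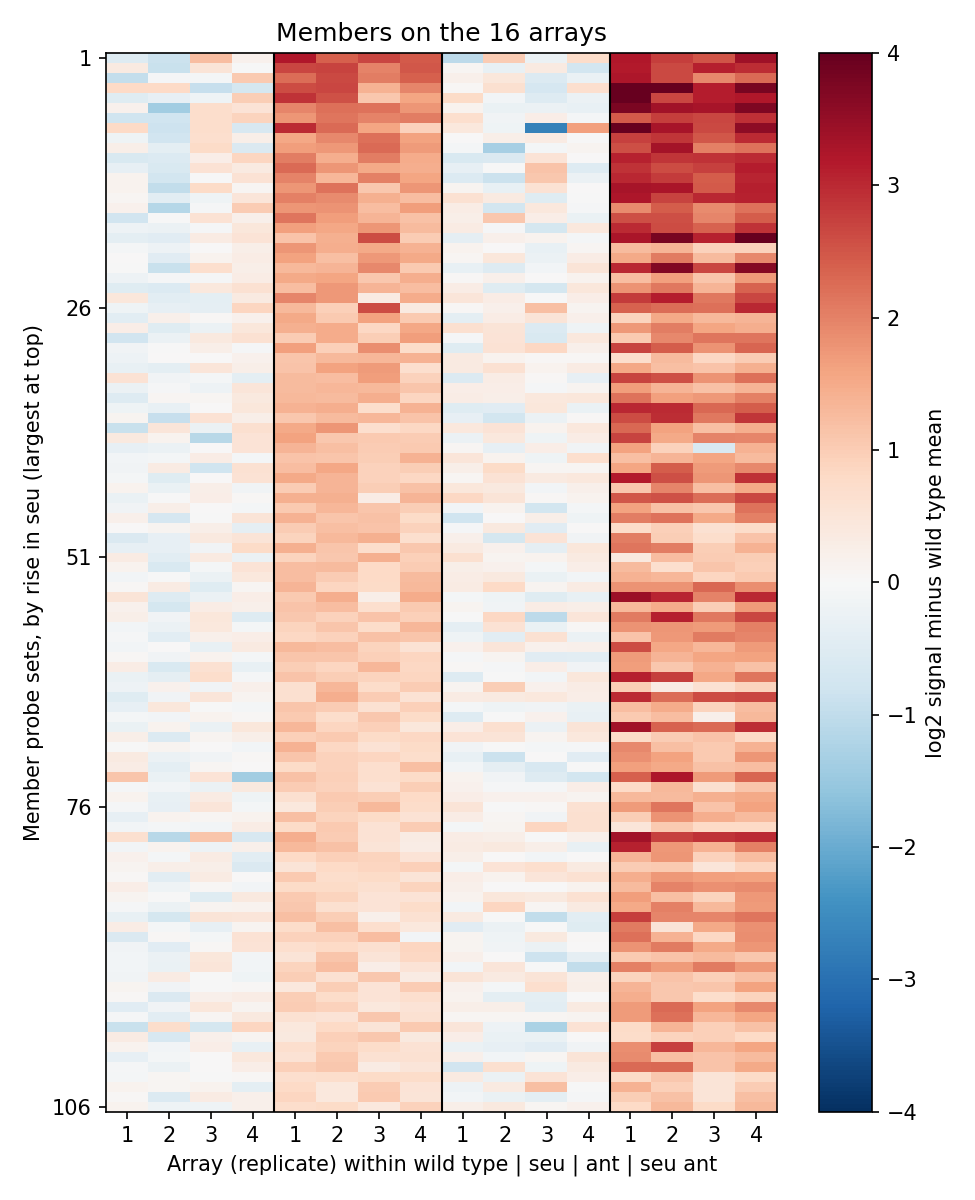
Log2 signal minus the wild-type mean (colour) for the 106 member probe sets (rows, ordered by the rise in seu) on the 16 arrays (columns, 4 per genotype). The seu columns and more so the seu ant columns are shifted upwards, and the median shift of a seu array lies between 0.96 and 1.14, that of a seu ant array between 1.48 and 1.82.

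The difference between seu ant and seu was not itself a limit of the rule, although both means entered it through their rises over wild type. The comparison asks whether transcripts that had risen without SEU stood higher again when ANT was also lost. In limma, fitted over all probe sets, 40 of the 106 members (37.7%) were called higher in seu ant than in seu, which required a false discovery rate (Benjamini-Hochberg) under 0.05 together with a difference over 0.35, and the same call was made for 4.68% of all probe sets. Among the probe sets with a seu mean of at least 7, which every member has, the call was made for 5.78%. No member was called lower, a call made for 5.5% of all probe sets and for 9.43% of those with a seu mean of at least 7, although 2 members were lower at an unadjusted p under 0.05 (limma). The limit on the rise in seu ant takes out probe sets that are high in seu and low in seu ant, and of the 20 that it took out 8 were called lower and none higher, with a median difference of -0.80. Without that limit the set held 126 probe sets, of which 40 were called higher and 8 lower, with a median difference of 0.52. The counts over the members are therefore a description and support no statement on the order of both genotypes. The difference between seu ant and seu had a median of 0.67 over the members, or 1.59-fold, and of 0.00 over all probe sets. It was above 0 for 97 members and below 0 for 9. All 4 seu ant arrays lay above all 4 seu arrays for 47 members, which was the case for 6.8% of all probe sets.

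The called members differed by 0.51 to 2.15, with a median of 1.22. Of the 66 members not called, 33 had a difference above 0.35, 32 lay within 0.35 of 0 and 1 lay below -0.35. A missed threshold does not show equal levels. For 25 members the upper end of the 95% interval of the difference was below 0.7, the size that the rule asks of a rise. In the mirror set of falls the median difference was -0.44, with 18 of 69 called lower in seu ant than in seu and 1 called higher. Over all probe sets 5.5% were called lower and 4.68% higher. The mirror also sets a limit on the seu ant mean, so its counts are a description too.

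**Figure D2:**
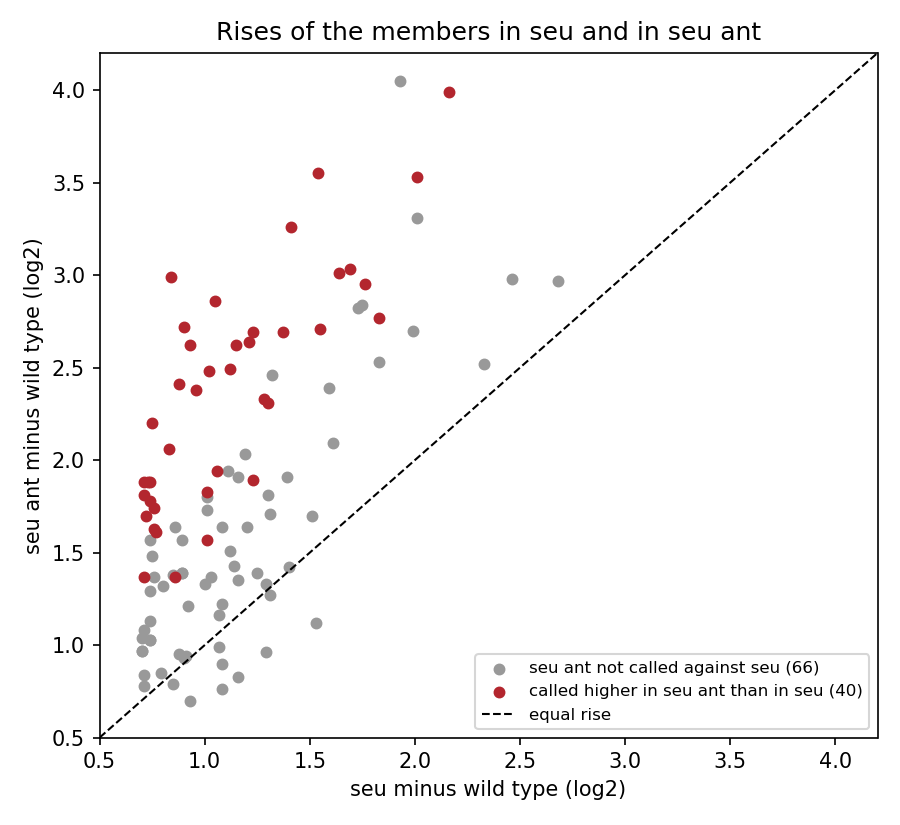
Rise over wild type in seu (x axis, log2) and in seu ant (y axis, log2) for each of the 106 members, with the line of equal rises. Red points are the 40 members called higher in seu ant than in seu, and 97 points lie above the line.

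The excess in seu ant can also be set against the small change in ant. The change upon loss of SEU in the ant background was larger than that in the wild-type background by a median of 0.56 over the members. In limma, 11 members were called with the larger rise in the ant background, beside 2.77% of all probe sets in that direction and 2.32% in the opposite one. All 4 genotype means in this difference were limited by the rule, so nothing is read from that count. The named genes among the 11 were AT5G55450, COR15B, AT1G49750, SWEET17, BGLU44 and AT3G24450, the last of which was picked out after its values were seen.

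Among the members that act on starch and sugars, CT-BMY and SWEET17 were the ones with a place in the list of starch and sugar genes. CT-BMY is a chloroplast beta-amylase, which releases maltose from transitory starch. Its log2 signals were 7.59, 7.29, 8.49 and 8.27 in wild type, 10.16, 9.69, 9.43 and 9.36 in seu, 7.59, 7.90, 9.06 and 7.40 in ant, and 10.81, 10.52, 10.63 and 11.04 in seu ant. The genotypes stood in separate steps from wild type to seu to seu ant without overlap, while the ant arrays overlapped those of wild type. The mean rose by 1.75 in seu and by 2.84 in seu ant, and the excess of 1.09 in seu ant over seu was not called (standard error 0.35, limma adjusted p = 0.0623), but passed without ant replicate 3.

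SWEET17 carries fructose across the vacuolar membrane. It had log2 signals of 7.11, 7.45, 8.09 and 7.72 in wild type, 8.23, 9.06, 8.63 and 8.18 in seu, 7.92, 7.96, 8.03 and 7.86 in ant, and 10.57, 9.82, 10.21 and 10.27 in seu ant. The seu ant arrays were well above all others, while the seu arrays lay just above those of wild type. SWEET17 was 3.22-fold higher in seu ant than in seu, a log2 difference of 1.69 (standard error 0.23, limma adjusted p = 0.000759). BGLU44, of the family of beta-glucosidases, was 3.51-fold higher in seu ant than in seu. It had log2 signals of 8.85, 9.23, 8.04 and 9.26 in seu and 11.20, 10.84, 9.77 and 10.81 in seu ant. The lowest seu ant array thus stayed above the highest seu array (difference 1.81, standard error 0.33, limma adjusted p = 0.00441), although 1 seu array, at 8.04, lay within the wild-type range of 7.27 to 8.31.

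Of the 63 genes in the list of starch and sugar genes, 21 were measured, so the counts cover a part of the list. In seu, 2 of them were called higher than wild type (BAM5 and CT-BMY) and none lower, beside 1.27% of all probe sets called higher and 0.914% called lower. In seu ant, 7 were called higher and none lower, beside 8.3% and 11.4% of all probe sets. These 7 were BAM5, CT-BMY, SWEET17, SWEET2, SWEET4, SWEET10 and SWEET14. The rule had already required the rises of the members CT-BMY and SWEET17, so their calls against wild type are no test. The median of the list was -0.10 in seu and 0.22 in seu ant. In ant, 1 was called higher and 2 lower, beside 1.89% and 3.03% of all probe sets. BAM5, a beta-amylase, failed the rule because it also rose in ant.

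The members that act on the cell wall, GH9B8 and AT2G26440, were not called between seu ant and seu. GH9B8, a glycosyl hydrolase of family 9, which cleaves glucans of the wall, had log2 signals of 7.76, 7.51, 6.26 and 7.92 in wild type, 8.96, 8.45, 8.41 and 8.37 in seu, and 10.05, 8.89, 9.34 and 9.30 in seu ant. Its seu and seu ant arrays overlapped at 8.89 and 8.96, and the difference of 0.85 was not called (standard error 0.34, limma adjusted p = 0.134). AT2G26440, a pectinesterase family gene, showed near-equal means in seu and seu ant, with rises of 0.91 and 0.94. The interval of its difference ran from -0.43 to 0.51.

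Of 33 xyloglucan endotransglucosylase genes, 12 were measured and none of these was a member. XTH32 and XTH16 were called higher than wild type in seu, and XTH32, XTH16 and XTH29 in seu ant, with no call lower in either. Over all probe sets 1.27% were called higher in seu and 8.3% in seu ant. The list median was 0.04 in seu and 0.15 in seu ant. In ant, XTH32 lay 0.53 and XTH16 0.76 above wild type, beyond the limit that the rule sets, and neither was called. XTH15 was the 1 gene of the list called higher in ant, by 0.89, beside 1.89% of all probe sets. Of 31 pectin-modifying genes, 6 were measured. AT2G26440 was the one called higher in seu, and ATPMEPCRB joined it in seu ant. The rule had already required the rises of AT2G26440, a member, so its calls are no test.

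Stress-related members included COR15B, a chloroplast protein induced by cold that protects membranes. COR15B had log2 signals of 5.85, 5.74, 6.04 and 6.48 in wild type, 7.42, 7.47, 6.73 and 7.42 in seu, 5.56, 5.57, 6.48 and 5.77 in ant, and 9.04, 9.03, 8.34 and 8.46 in seu ant. The genotypes again formed steps without overlap from wild type to seu to seu ant, and the ant arrays overlapped those of wild type. The level in seu ant was 2.75-fold that in seu (difference 1.46, standard error 0.25, limma adjusted p = 0.00342).

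AT2G46140, a putative late embryogenesis abundant protein, had log2 signals of 9.71, 9.21, 9.12 and 9.65 in seu and 10.17, 10.17, 10.65 and 10.21 in seu ant. The seu ant arrays all exceeded those of seu (difference 0.88, standard error 0.20, limma adjusted p = 0.0139), and ant lay 0.39 above wild type, close to the limit of the rule. AT3G03270, of the universal stress protein family, rose by 1.02 in seu and by 2.48 in seu ant, and its excess of 1.46 in seu ant over seu was called (standard error 0.36, limma adjusted p = 0.019). Without seu ant replicate 2 the excess was 1.26 and no longer called. Of 23 cold and dehydration genes, 6 were measured. In seu, 3 were called higher than wild type (COR15B, AT2G46140 and AT4G30650), beside 1.27% of all probe sets. In seu ant 5 were, with COR15A and COR47 added, beside 8.3% of all probe sets. The rule had already required the rises of the members COR15B and AT2G46140, so their calls are no test. None was called lower in either, and none was called in ant. AT4G30650, which is not a member, still lay 1.24 above wild type in ant (standard error 0.42), beyond the limit of the rule. This list was drawn up in part from the tables of the study, which rest on these samples, so its direction is not independent evidence.

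Of the members that code for proteases, BETA-VPE was called higher in seu ant than in seu and AT1G25510 was not called. BETA-VPE, a vacuolar processing enzyme that cleaves proteins in the vacuole, had log2 signals of 5.56, 4.00, 6.09 and 5.96 in wild type, where 4.00 is the floor. They were 7.35, 7.59, 7.56 and 7.15 in seu, 5.53, 5.14, 5.17 and 5.09 in ant, and 9.16, 8.77, 8.70 and 9.12 in seu ant. Neither seu nor seu ant overlapped any other genotype. The excess of seu ant over seu was 1.52 (standard error 0.35, limma adjusted p = 0.0147).

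AT1G25510, an aspartyl protease family gene, gave the lowest difference of all members between seu ant and seu. Its log2 signals were 7.96, 7.82, 8.06 and 8.27 in wild type, 9.78, 9.48, 9.56 and 9.41 in seu, 8.18, 8.06, 7.73 and 8.11 in ant, and 9.29, 9.40, 8.96 and 8.95 in seu ant. All seu ant arrays lay below all seu arrays and above all wild-type arrays. The difference of -0.41 was not called (standard error 0.13, limma adjusted p = 0.0696). It was -0.49 and called without seu ant replicate 2.

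**Figure D3:**
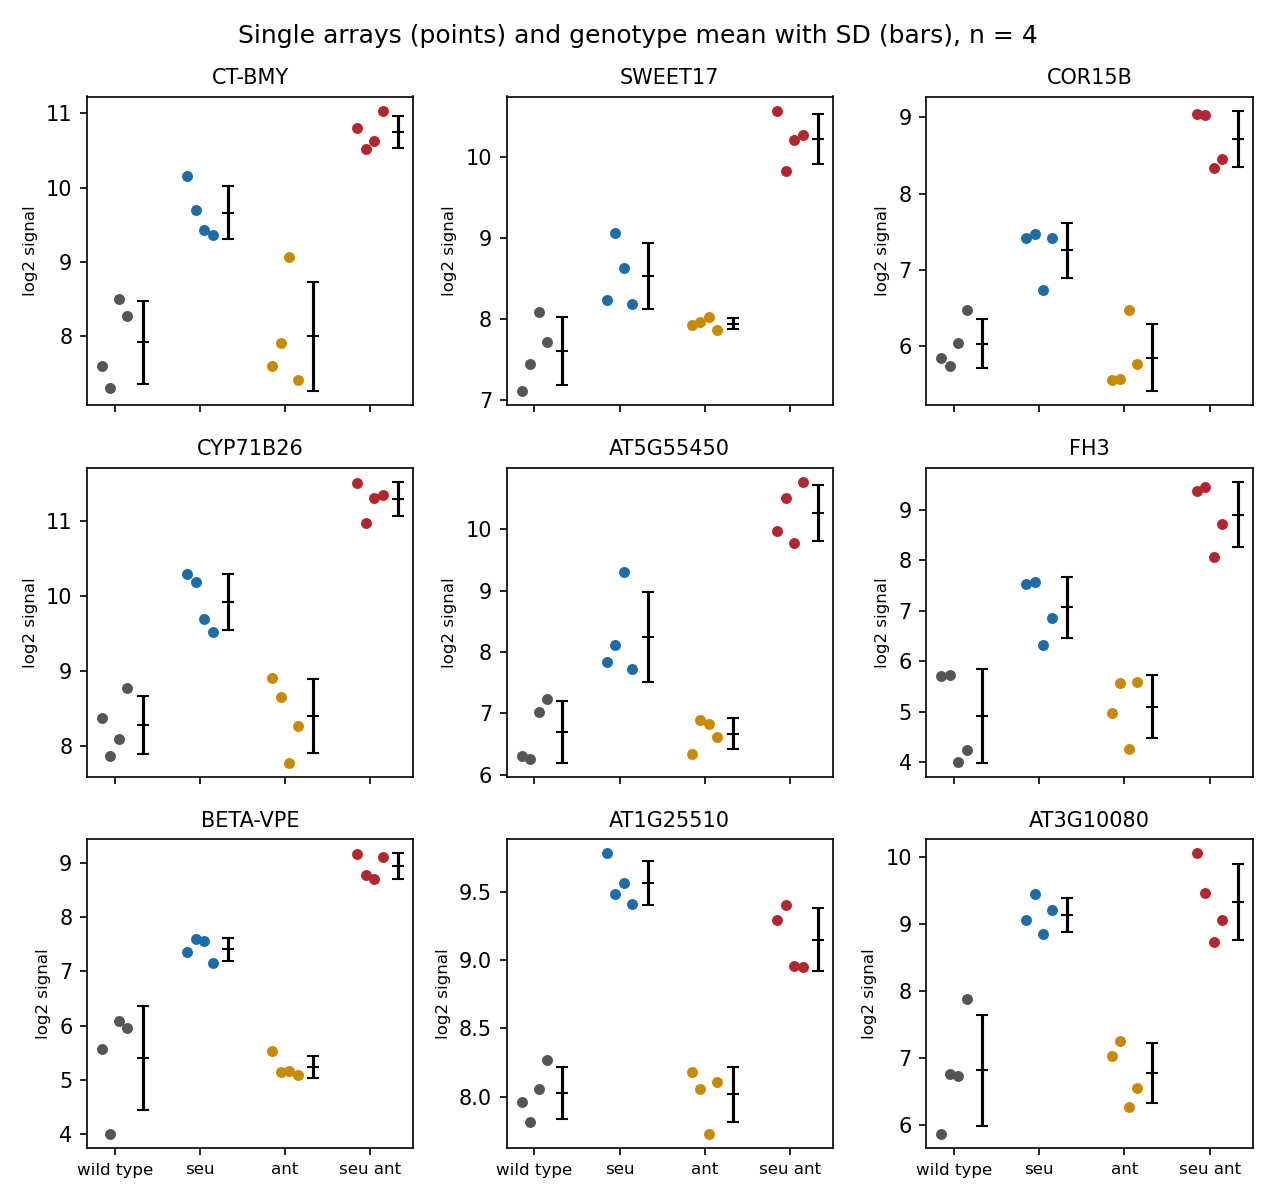
Log2 signal of 9 named members on single arrays (points) with the mean and SD of each genotype (bars, n = 4). In 7 panels the seu ant arrays lie above all seu arrays, whereas AT1G25510 lies below them and AT3G10080 overlaps them.

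The largest rises of named genes in seu belonged to AT5G12270 and AT3G10080. AT5G12270 is of the family of 2OG-Fe(II) oxygenases, enzymes that oxidise small molecules with 2-oxoglutarate. It had log2 signals of 7.05, 5.81, 7.20 and 6.68 in wild type, 9.37, 9.38, 8.68 and 9.16 in seu, 6.76, 6.40, 7.05 and 5.96 in ant, and 9.86, 9.34, 9.81 and 9.65 in seu ant. Wild type and ant shared a low range, and seu and seu ant a high range in which they overlapped. It rose by 2.46 in seu and by 2.98 in seu ant, and the interval of the difference between both ran from -0.13 to 1.16.

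AT3G10080, a putative germin-like protein, had log2 signals of 5.86, 6.76, 6.73 and 7.87 in wild type, 9.05, 9.44, 8.85 and 9.20 in seu, 7.02, 7.25, 6.26 and 6.54 in ant, and 10.05, 9.46, 8.73 and 9.06 in seu ant. The 8 arrays with seu-3 lay above the other 8, with overlap between seu and seu ant. The rise was 5.02-fold in seu and 5.73-fold in seu ant, and the interval of the log2 difference ran from -0.64 to 1.02.

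CYP71B26, a cytochrome P450, had log2 signals of 8.37, 7.87, 8.10 and 8.77 in wild type, 10.29, 10.18, 9.69 and 9.52 in seu, 8.90, 8.65, 7.78 and 8.27 in ant, and 11.51, 10.97, 11.31 and 11.35 in seu ant. Here too the seu ant arrays were separate from those of seu, with a difference of 1.36 (standard error 0.26, limma adjusted p = 0.00535). Of 36 CYP71B genes, 18 were measured. CYP71B26 and CYP71B6 were called higher than wild type in seu, and both of these and CYP71B22 in seu ant, where CYP71B5 was called lower. Over all probe sets 1.27% were called higher in seu, and 8.3% higher and 11.4% lower in seu ant. The rule had already required the rises of CYP71B26, so its calls against wild type are no test. The list median was -0.01 in seu and 0.13 in seu ant. GSTU20, a glutathione S-transferase of the tau class, which conjugates glutathione to small molecules, rose by 1.37 in seu and 2.69 in seu ant. Its lowest seu array, at 8.57, fell within the wild-type range of 7.83 to 8.69. The excess of 1.32 in seu ant over seu was called (standard error 0.33, limma adjusted p = 0.0227), but not without seu ant replicate 1 (1.27) or replicate 2 (1.16), nor with only the 2 compared genotypes in the fit (limma adjusted p = 0.0987).

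A pair of members, AT5G55450 and AT1G48750, belonged to the family of lipid transfer proteins, which bind lipids outside the cell membrane. AT5G55450 had log2 signals of 6.31, 6.25, 7.02 and 7.24 in wild type, 7.83, 8.11, 9.30 and 7.72 in seu, 6.34, 6.90, 6.83 and 6.62 in ant, and 9.97, 10.50, 9.78 and 10.77 in seu ant. All 4 genotype ranges were separate except those of ant and wild type. Its excess of 2.02 in seu ant over seu was the largest of the named members, a 4.05-fold difference (standard error 0.35, limma adjusted p = 0.0033). AT1G48750 had log2 signals of 11.87, 11.93, 11.90 and 11.72 in seu and 12.29, 11.96, 11.77 and 11.98 in seu ant. These ranges overlapped, and the interval of its difference ran from -0.17 to 0.46.

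Of the members with a part in the cytoskeleton, FH3 is a formin, a protein that nucleates actin filaments. FH3 had log2 signals of 5.71, 5.73, 4.00 and 4.23 in wild type, with 1 array at the floor, and 7.53, 7.58, 6.32 and 6.86 in seu. They were 4.98, 5.57, 4.25 and 5.59 in ant and 9.38, 9.45, 8.06 and 8.73 in seu ant. Each step from wild type to seu to seu ant was free of overlap, and the excess over seu was 1.83 (standard error 0.49, limma adjusted p = 0.0285). This call was lost when seu replicate 3 or 4 or seu ant replicate 1, 2 or 4 was left out, with values of 1.58 to 1.89. FH3 was the named member with the lowest mean in seu, at 7.07. TUB1, a beta-tubulin chain, rose by 0.74 in seu and by 1.03 in seu ant and sat at the limit in ant, with a difference of 0.40. Its ranges in seu and seu ant overlapped, and the interval of the difference ran from -0.06 to 0.64.

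AT1G49750, a leucine-rich repeat family gene, had log2 signals of 8.76, 8.96, 9.0 and 8.82 in seu and 10.28, 10.64, 9.79 and 10.55 in seu ant. These 2 groups were well apart, with a difference of 1.43 (standard error 0.28, limma adjusted p = 0.0062). AT2G45340, a putative leucine-rich repeat kinase, gave a difference of -0.23 instead, with an interval from -0.68 to 0.23. The remaining members among the 20 largest named rises in seu were AT4G23870, AT1G08180, AT1G11700, AT5G52390, AT1G78170, AT2G48030 and AT2G29670, with rises of 1.28 to 1.83. Of these, AT4G23870 and AT2G29670 were called higher in seu ant than in seu, by 0.94 and 1.05 (limma adjusted p = 0.0293 and 0.0193). AT5G52780, with a rise of 0.75 in seu, was also called, with an excess of 1.45 (standard error 0.34, limma adjusted p = 0.0167). The call of AT4G23870 was lost without any of seu replicates 1, 2 and 4 and seu ant replicates 1, 2 and 4 (0.85 to 0.97). That of AT2G29670 was lost without seu replicate 4 or seu ant replicate 1 or 2 (0.92 to 0.96), and that of AT5G52780 without seu replicate 3 or seu ant replicate 1 (1.26 in both). In all, 23 of the 56 members that name 1 gene were called higher in seu ant than in seu, beside 4.68% of all probe sets. Among the probe sets with a seu mean of at least 7 the share was 5.78%. The largest rise in seu of all, 2.68, and the largest excess in seu ant over seu, 2.15, belonged to members without a gene name.

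Other pathways fixed as lists held no member. Of 5 genes of the trypsin inhibitor cluster, 3 were measured, and all 3 were called higher than wild type in seu ant. In seu 2 of them (AT2G43535 and AT2G43550) were called higher, and the same 2 in ant. Over all probe sets 8.3% were called higher in seu ant, 1.27% in seu and 1.89% in ant. Among the 15 floral and HD-Zip regulators, HAT1 and AGL42 were measured and both were called higher in all 3 mutants. Both of these lists were taken from the tables of the study. Of 50 photosynthesis genes, 8 were measured. None was called in seu and 3 (NPQ4, PSBY and LHCB4.3) were called higher in seu ant, beside the 1.27% and 8.3% of all probe sets given above. In ant, PSAN was called lower and the list median was -0.52. In seu ant, 4 of the 8 were called higher than in seu, beside 4.68% of all probe sets. Among 6 measured of 40 phenylpropanoid genes, CYP98A3 was called higher in seu ant and none was called in seu. Among 3 measured of 35 jasmonate genes, JMT was called higher in both seu and seu ant, beside the same 1.27% and 8.3%. JMT had met the limits of the rule and was removed by name only, so its calls are no test. TIP2;2, the 1 water channel measured of 23, was called higher in seu ant.

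Because the same arrays had chosen the members, each array in turn was left out of the choice and then read. The median over the members chosen on the other 15 arrays was 0.79 to 1.18 above the wild-type mean for a left-out seu array and 1.45 to 1.86 for a left-out seu ant array. It was -0.03 to 0.16 for a left-out ant array and -0.31 to 0.33 for a left-out wild-type array. Between 95.3% and 100.0% of the members lay above the wild-type mean on a left-out seu array, and between 57.1% and 90.3% were at least 0.7 above it. On a left-out seu ant array 90.7% to 99% were at least 0.7 above it. The 4 seu arrays and the 4 seu ant arrays did not overlap in either reading. The choice without an array still used the other arrays of its genotype and the limit on the rise in seu ant. This order is therefore a description and no independent check.

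**Figure D4:**
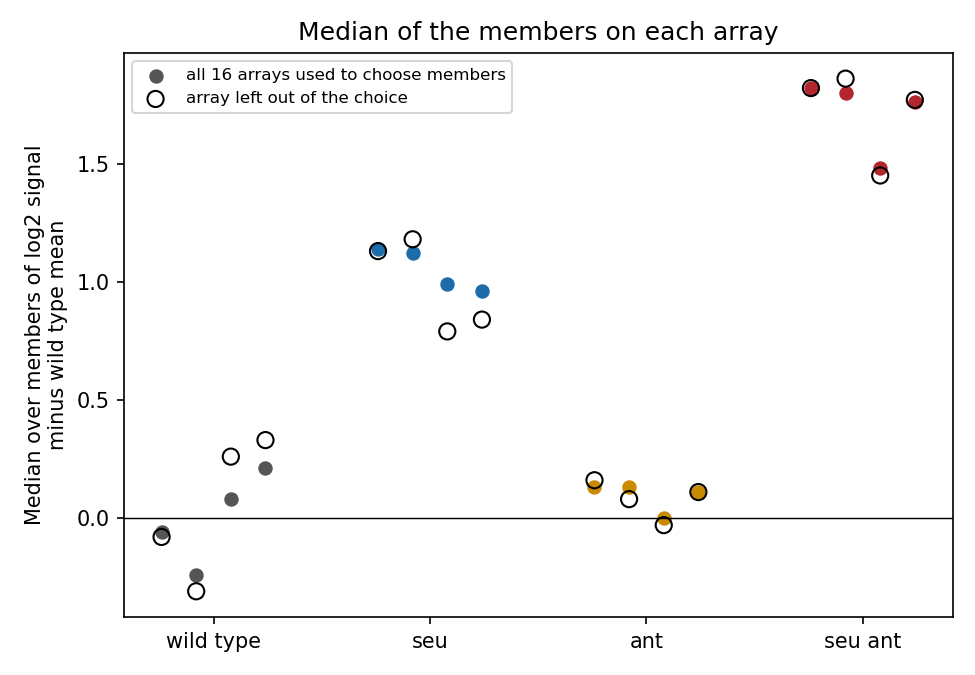
Median over the members of the log2 signal minus the wild-type mean on each of the 16 arrays (4 per genotype). Filled points use members chosen on all arrays and open points members chosen without the array shown, and left-out seu arrays lie at 0.79 to 1.18, left-out seu ant arrays at 1.45 to 1.86.

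Within genotypes the members shared some variation. After the genotype means were removed, pairs of members had an average Pearson correlation of 0.14 over the 16 arrays, against 0.007 for pairs among the 12180 probe sets with a seu mean of at least 7. The median SD within a genotype was 0.28 to 0.39 for members and 0.17 to 0.18 for those 12180 probe sets. Wild type replicate 2 had the lowest median over the members, -0.24, and wild type replicate 4 the highest among wild type, 0.21. Seu ant replicate 3 was the lowest of its genotype at 1.48.

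Some cell type markers also differed between genotypes. NGA1, a carpel regulator, had mean log2 signals of 8.98 in wild type, 9.09 in ant, 7.96 in seu and 6.33 in seu ant, and was called lower in seu and in seu ant. In seu ant, SPT fell by 1.38 from wild type and ALC rose by 1.29, both of them called, and ALC was also called higher in ant. The 3 stomatal markers measured had summed signals of 62.0 to 109.4 on wild-type arrays, 107.5 to 189.3 on ant arrays, 105.3 to 160.3 on seu arrays and 203.3 to 433.7 on seu ant arrays. Among them SPCH had mean log2 signals of 5.02, 6.55, 6.68 and 7.63 in that order. It lay above wild type in ant as well as in seu, unlike the members, but was called higher in seu ant alone. MUTE was at the floor on 4 wild-type, 2 ant, 2 seu and 3 seu ant arrays, and FMA had means of 4.44, 4.21, 4.34 and 4.9. Neither MUTE nor FMA was called in any mutant, so these sums mainly follow SPCH. CYCA1;1, the cell-cycle marker measured, had means of 11.43 to 11.68 in all genotypes. The 2 sepal and petal markers (PTL and RBE) summed to 343.7 to 397.6 on wild-type arrays, 202.5 to 297.7 on ant arrays, 178.8 to 249.0 on seu arrays and 90.9 to 156.6 on seu ant arrays. RBE was at the floor on 4 wild-type, 4 ant, 3 seu and 3 seu ant arrays, so these sums follow PTL. PTL had mean log2 signals of 8.48, 7.85, 7.53 and 6.53 in that order. It was called lower in seu and in seu ant and, unlike the members, also lay 0.63 from wild type in ant, below it and not called. The 2 ovule markers measured (INO and SPL) summed to between 32, which is the sum of their floors, and 78.8. Their part in the members' levels was not tested.

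The 56 named members lay on all 5 chromosomes, with 16, 8, 7, 11 and 14 on chromosomes 1 to 5. No 2 of them were next to each other. The nearest pairs were AT1G11670 and AT1G11700, 4 genes apart, and AT5G01740 and AT5G01790, 5 genes apart.

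The limits of the rule cut through a continuous range. Just inside the limit on level in seu were FH3 (7.07), AT5G53900 (7.09) and AT5G42200 (7.17), and just outside it CYP96A1 (6.97), AT1G77200 (6.92) and RING1 (6.92). At the limit on the rise in seu, AT4G34480 (0.704), AT3G21670 (0.708) and AT5G41920 (0.713) were kept, and AT3G07570 (0.685), AT5G53880 (0.685) and AT5G02710 (0.684) were not. For the rise in seu ant, AT2G45340 (0.702), AT5G41920 (0.844) and AT1G11670 (0.929) were the nearest inside, and ATLP-1 (0.563), GSTU26 (0.397) and AT3G55710 (0.353) the nearest outside. For the distance of ant from wild type, TUB1 (0.40), AT1G11670 (0.396) and AT5G52390 (0.390) were kept, and CYP71B6 (0.403), AT3G10720 (0.407) and AT4G16980 (0.443) were not.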

How the data were processed

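The authors deposited linear signal intensities computed with MAS5 (named in the submitters' processing notes, version not given in the sources used), with every array scaled to a common level. Samples were grouped by the genotype in their labels, and the labels name each pool of gynoecia as 1 biological replicate.

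After removal of 64 AFFX controls and a floor of 16 on the signal, log2 values of 22746 probe sets entered a limma fit (version 3.58.1, R 4.3.3) with 1 mean per genotype over 16 arrays, which was tested on simulated data. Calls needed a Benjamini-Hochberg adjusted p under 0.05 over all probe sets and a log2 difference over 0.35. Figures used matplotlib 3.10.9 in Python 3.11.15. Values at the floor are bounds, and the number of arrays limits the precision.

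Names came from the platform annotation, updated through the reference gene table, and from a table of the study for 340 probe sets. In all, 13853 probe sets name 1 gene and 503 several. In gene lists, the brightest probe set stood for a gene. List members were matched by locus, symbol or description, and a gene without a named probe set was not used. The lists of lipid transfer proteins (11 genes), epidermis markers (6) and vasculature markers (7) had no gene with a named probe set. Among other markers, 3 of 9 tapetum and pollen, 3 of 8 stomatal, 2 of 6 ovule, 2 of 5 sepal and petal and 1 of 7 cell-cycle genes had one.

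The text names members with 1 gene: the 20 largest rises in seu, up to 4 per list, the 8 largest called differences between seu ant and seu in each direction, those nearest the limits of the rule, and SEU, plus list genes on which a count turns. The members and lists were chosen with earlier results of these data known. Alternatives were another floor, an offset, other normalizations, a filter on dim probe sets, another prior, a fit of 2 genotypes, the adjusted p alone and leaving out each array. Promoter motifs and sequences were not analysed here.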

Additional observations from a re-analysis of the deposited data

Results flagged for a closer look

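Of the 56 members with a gene name, the 34 that the naming rule selects were screened in each of the 4 genotypes, 136 groups of 4 arrays, for an array far from the other 3. Chance marks about 1 in 20 such groups, and 6 were found. AT5G52390 was high in wild type replicate 4, at a log2 signal of 9.43 against 8.19 to 8.38 on the other wild-type arrays. It was also high in ant replicate 3, at 9.76 against 8.62 to 8.75. COR15B was low in seu replicate 3, at 6.73 against 7.42 to 7.47. GH9B8 was high in seu replicate 1, at 8.96 against 8.37 to 8.45. AT2G46140 was high in seu ant replicate 3, at 10.65 against 10.17 to 10.21. AT1G11670 was low in wild type replicate 2, at 8.05 against 8.72 to 8.82.

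For 5 of these 34 members the change upon loss of SEU was larger in the ant background than in the wild-type background, by the interaction contrast in limma with adjustment over all probe sets. That contrast called 2.77% of all probe sets in this direction and 2.32% in the opposite one. All 4 genotype means in this contrast were limited by the rule that chose the members, so the values are a description. Outside the 34, AT3G24450 had the same call, with a difference of 0.89 (limma adjusted p = 0.0218). AT5G55450 rose by 1.54 in the wild-type background and by 3.58 in the ant background, a difference of 2.05 (limma adjusted p = 0.0332). COR15B rose by 1.23 and 2.87, a difference of 1.64 (limma adjusted p = 0.0234). AT1G49750 rose by 1.21 and 2.95, a difference of 1.74 (limma adjusted p = 0.0262). SWEET17 rose by 0.93 and 2.27, a difference of 1.34 (limma adjusted p = 0.0324). BGLU44 rose by 1.05 and 3.12, a difference of 2.07 (limma adjusted p = 0.0264).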

How the results depend on the processing

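Over other floors, offsets and normalizations the rule found 106 to 112 members, and 82 to 127 when 1 array was left out. The members themselves changed more than these sizes. Of the 106, 105 were kept with a floor of 32, 89 with the offset, 84 with quantile normalization and 79 with median centring. Without wild type replicate 2, 70 of them were kept, the fewest for any array left out. The members called higher in seu ant than in seu numbered 37 to 50 over the planned settings and 27 to 46 with 1 array left out. Members called lower numbered 1 (AT1G25510) among probe sets with a mean log2 of at least 7, and 0 to 2 with 1 array left out. The 2 arose without seu ant replicate 2 and were AT1G25510 and an unnamed probe set. With the limit on seu ant dropped from the rule, an alternative added after seeing the data, 40 probe sets were called higher and 8 lower. No difference of a named member reversed: over all settings 769 single values kept their call or lack of one, 32 lost a call and 10 gained one. CT-BMY was called under 4 settings that kept all arrays, AT5G52390 under the filter on dim probe sets and without seu replicate 3 (1.58), and GH9B8 without wild type replicate 3. AT3G21670 was called at 1.10 with all arrays and lost the call with only the 2 compared genotypes fitted (limma adjusted p = 0.0897) and without any wild type, seu replicate 1, 3 or 4, ant replicate 3 or seu ant replicate 1, 2 or 4.

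Counts called higher than wild type in the small lists were less stable. With a floor of 32, the pectin count in seu was 0. With median centring, and with the filter on dim probe sets, 1 photosynthesis gene was called in seu. That filter, which tests fewer genes, left 2 cold and dehydration and 4 starch and sugar genes called in seu ant. With only the 2 compared genotypes fitted, 1 gene was called in seu in each of the cold, XTH, CYP71B and starch lists. With 1 array left out, calls in seu were 1 to 3 for cold, 1 to 2 for XTH, 0 to 1 for pectin, 1 to 2 for CYP71B, 1 to 3 for starch and 0 to 0 for photosynthesis and phenylpropanoid genes. In seu ant they were 4 to 5, 2 to 3, 2 to 2, 3 to 4, 6 to 8, 2 to 3 and 0 to 1 in that order. The cold count in seu fell to 1 without seu replicate 1; the starch count in seu fell to 1 without wild type or seu replicate 1 or 2. The CYP71B count in seu fell to 1 without wild type replicate 1 or 2 or any seu array. The XTH count in seu fell to 1 without any array except wild type replicate 3, seu replicate 2 and ant replicates 1 and 3. The pectin count in seu fell to 0 without any array except ant replicates 1 and 3 and seu ant replicate 3. The phenylpropanoid count in seu ant fell to 0 without wild type replicate 1 or seu ant replicate 2. The cause was not tested. No paired analysis was possible because the labels give no replicate numbers that groups share. Signal near the floor limits dim genes.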
